A study of Mus musculus with 2 samples.

Results

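The axon guidance ligands and receptors were the 69 protein-coding genes of the GENCODE M21 annotation whose symbols name a semaphorin (Sema), a plexin (Plxn), a neuropilin (Nrp1, Nrp2), an Eph receptor (Epha, Ephb), an ephrin (Efna, Efnb), a Slit (Slit1 to Slit3), a Robo receptor, a netrin (Ntn and a digit), an Unc5 receptor (Unc5 and a letter) or Dcc, out of 21938 protein-coding genes in all. The symbols alone chose them, 35 as ligands and 34 as receptors. No measured value entered this rule, although the members were chosen with earlier results of these data known. Chromatin accessibility was measured by DNase-seq, in which DNase I cuts accessible DNA and the released ends are sequenced, in left cerebral cortex tissue of female B6CASTF1/J mice aged 14 days, an F1 cross between the strains C57BL/6J and CAST/EiJ. The 2 libraries, called replicate 1 and replicate 2 after the labels, form 1 group with no treated, mutant or control counterpart, and the labels number the animals separately under 1 donor record. Each member was therefore described in each library and set beside all protein-coding genes measured the same way, with no test between groups and no p-value.

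Axon guidance genes code for secreted or membrane-bound cues and for the receptors with which growth cones read them. Semaphorins act through plexins, with neuropilins as co-receptors for most class 3 semaphorins. Ephrins bind Eph receptor tyrosine kinases on neighbouring cells, Slits repel axons through Robo receptors, and netrins attract through Dcc or repel through Unc5 receptors. In the cerebral cortex these genes are known for guiding callosal, corticospinal and thalamocortical axons before and around birth, and several of them act later at synapses and in blood vessels. DNase I hypersensitive sites (DHSs) are peaks of DNase cutting, each usually a promoter or another regulatory element, and a footprint is a short stretch inside a DHS that is cut less than its surroundings, as happens where a protein sits on the DNA.

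Peak height is given as the signal the authors deposited for each peak, whose unit is not stated. A peak counted as a promoter DHS when it touched the window of 1 kb up- and downstream of an annotated transcription start site (TSS) of the gene, and its signal is that of the highest such peak. The highest peak was taken in each library on its own, so the 2 values of a gene can come from different sites. This was so at Plxnb2, Plxnd1, Nrp1, Efnb1, Ephb6 and Sema7a, among others. Replicate 1 held 90059 peaks and replicate 2 held 175597, and no depth could be read from either list. In bulk cortex, a lower signal because fewer cells hold a DHS and a lower signal because each cell is cut less cannot be told apart. The labelled tissue was checked by markers, where 62.7% of all protein-coding genes had a promoter DHS in both libraries. Such a DHS was found at 7 of 8 genes of cortical excitatory neurons (Fezf2 lacked it) and 5 of 5 pan-neuronal genes. It was found at 2 of 5 interneuron genes (Gad2, Lhx6 and Sst lacked it), 2 of 4 microglial and 1 of 4 endothelial and mural genes. Of hindbrain genes 1 of 4 had it, and of liver genes 0 of 4. With 3 of 4 and 4 of 5, astrocyte and oligodendrocyte-lineage genes were not below the share of all genes.

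The accessible DNA at the highest promoter of each family group, among members with an entry in the RefSeq promoter table, is shown first, because the values below refer to it. In the group of netrins and their receptors this was Unc5b, whose signal was moderate. Unc5d had a slightly higher one and is named only. The sequences are of the GRCm38 (mm10) reference, written 5′ to 3′ on the plus strand, with capitals for bases under footprints found in both libraries. They show, in this order, the highest promoter DHS of Sema4b (intronic, 293 bp downstream of a TSS), of Plxnc1 (intronic, at an internal TSS), of Ephb3 (upstream of the gene), of Efnb2 and Unc5b (the part upstream of the transcribed gene) and of Robo3 (intronic, 647 bp upstream of an internal TSS), and last the highest DHS of a member's gene body away from any TSS, in an intron of Ephb2.
Sema4b, chr7:80187061-80187280: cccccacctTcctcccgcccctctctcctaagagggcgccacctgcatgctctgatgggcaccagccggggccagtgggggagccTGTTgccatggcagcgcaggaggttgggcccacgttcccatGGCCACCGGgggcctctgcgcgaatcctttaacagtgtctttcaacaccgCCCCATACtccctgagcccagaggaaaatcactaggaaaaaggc
Plxnc1, chr10:94829481-94829700: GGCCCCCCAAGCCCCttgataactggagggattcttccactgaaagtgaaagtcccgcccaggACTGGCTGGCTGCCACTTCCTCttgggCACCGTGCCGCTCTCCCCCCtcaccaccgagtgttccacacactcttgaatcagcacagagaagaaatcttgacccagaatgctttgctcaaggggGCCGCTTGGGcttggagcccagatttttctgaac
Ephb3, chr16:21204412-21204711: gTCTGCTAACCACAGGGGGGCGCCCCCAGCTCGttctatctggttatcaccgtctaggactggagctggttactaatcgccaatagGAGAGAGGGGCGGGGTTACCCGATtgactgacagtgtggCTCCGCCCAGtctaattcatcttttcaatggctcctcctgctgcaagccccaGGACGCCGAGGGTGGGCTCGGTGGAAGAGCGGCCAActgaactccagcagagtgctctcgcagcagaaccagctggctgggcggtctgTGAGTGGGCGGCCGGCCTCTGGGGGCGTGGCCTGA
Efnb2, chr8:8661243-8661440: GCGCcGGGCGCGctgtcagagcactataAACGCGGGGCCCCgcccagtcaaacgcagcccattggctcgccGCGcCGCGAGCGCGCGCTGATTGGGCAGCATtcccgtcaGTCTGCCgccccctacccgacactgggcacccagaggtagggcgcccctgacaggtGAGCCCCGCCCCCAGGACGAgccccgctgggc
Robo3, chr9:37430681-37430880: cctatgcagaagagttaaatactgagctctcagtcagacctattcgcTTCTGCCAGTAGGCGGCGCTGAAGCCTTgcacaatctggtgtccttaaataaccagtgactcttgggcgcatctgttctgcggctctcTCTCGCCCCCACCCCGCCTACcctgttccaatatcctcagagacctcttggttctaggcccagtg
Unc5b, chr10:60831582-60831780: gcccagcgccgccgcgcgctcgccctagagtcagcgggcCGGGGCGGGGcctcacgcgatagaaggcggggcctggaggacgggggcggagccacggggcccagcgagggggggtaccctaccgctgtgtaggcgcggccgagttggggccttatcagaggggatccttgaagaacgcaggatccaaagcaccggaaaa
Ephb2, chr4:136678561-136678760: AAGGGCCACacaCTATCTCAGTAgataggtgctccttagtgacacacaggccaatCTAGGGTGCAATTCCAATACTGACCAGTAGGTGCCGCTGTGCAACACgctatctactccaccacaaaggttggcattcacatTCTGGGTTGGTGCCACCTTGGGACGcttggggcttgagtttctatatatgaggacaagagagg
In the Ephb3 stretch 137 of 300 bases lay under shared footprints, against 10 of 199 bases in the Unc5b stretch and 92 of 200 bases in the Ephb2 intron. The GC content ran from 50.5% in the Ephb2 intron to 73.2% in the Efnb2 stretch.

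Most axon guidance genes had an accessible promoter in the cortex at this age. A promoter DHS was found in both libraries for 57 of 69 members (82.6%), against 62.7% of all protein-coding genes. It was found in neither library for 5 members (7.25%), against 31.3% of all protein-coding genes. Replicate 1 alone had a promoter peak at 1 member (1.45%, against 0.916% of all) and replicate 2 alone at 6 members (8.7%, against 5.04% of all). With the smaller, stricter peak list of each library the count was 54 of 69 (78.3%), against 57.2% of all protein-coding genes, and the members lost were Ephb6, Plxna1 and Slit2.

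**Figure D1:**
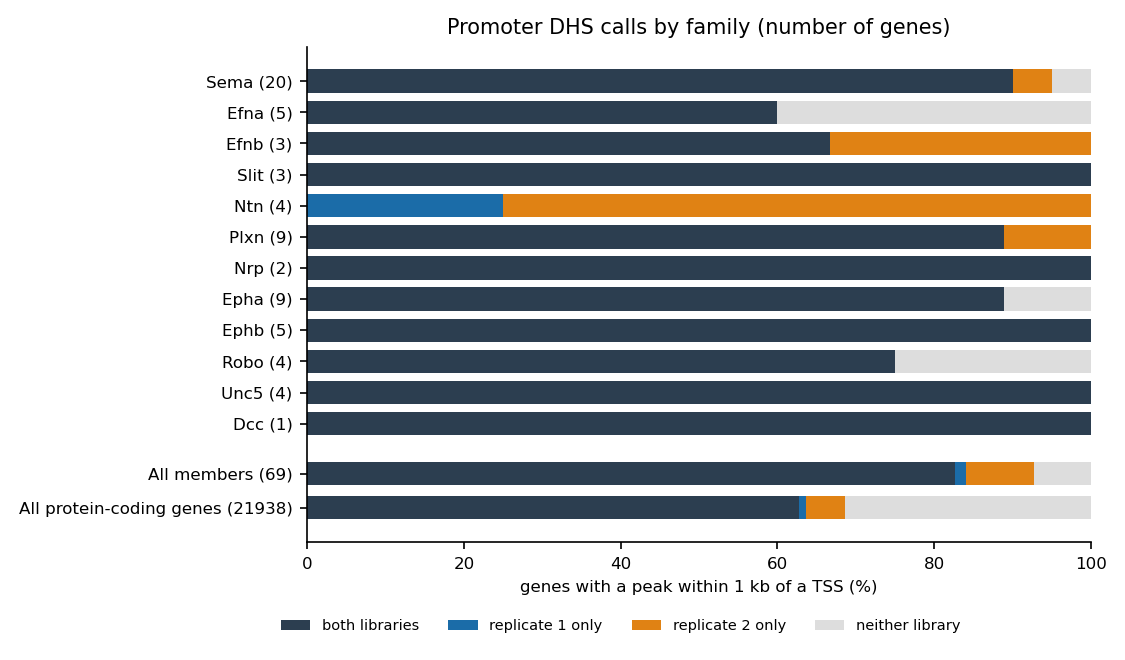
Promoter DHS calls by family. Bars give the share of genes (%) with a peak within 1 kb of a TSS in both libraries, in replicate 1 only, in replicate 2 only or in neither, with the number of genes in parentheses; ligand families stand above receptor families, and all 69 members above all 21938 protein-coding genes. The netrins are the family with no gene called in both libraries, and the bar for both libraries reaches 82.6% for all members and 62.7% for all protein-coding genes.

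A promoter DHS in both libraries was found at 31 of 34 receptors and at 26 of 35 ligands, a difference that was not tested. Every Unc5 receptor (Unc5a, Unc5b, Unc5c, Unc5d), Dcc, both neuropilins (Nrp1, Nrp2), all 5 EphB receptors (Ephb1, Ephb2, Ephb3, Ephb4, Ephb6) and all 3 Slits (Slit1, Slit2, Slit3) were called in both libraries. The EphA receptors called in both were Epha1, Epha2, Epha3, Epha4, Epha5, Epha6, Epha7 and Epha10, with Epha8 missing. The plexins called in both were Plxna1, Plxna2, Plxna3, Plxna4, Plxnb1, Plxnb2, Plxnc1 and Plxnd1, with Plxnb3 missing, and the Robo receptors were Robo1, Robo2 and Robo3, with Robo4 missing. Of 8 ephrins, 5 were called in both (Efna1, Efna3, Efna5, Efnb1, Efnb2). Of 20 semaphorins, 18 were called in both: Sema3a, Sema3b, Sema3c, Sema3d, Sema3e, Sema3f, Sema4a, Sema4b, Sema4c, Sema4d, Sema4f, Sema5a, Sema5b, Sema6a, Sema6b, Sema6c, Sema6d and Sema7a. None of the 4 netrins (Ntn1, Ntn3, Ntn4, Ntn5) was.

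The share differed with the promoter's CpG content, given as the ratio of CpG sites seen to those expected from base content, 500 bp up- and downstream of the gene's first TSS. At a ratio of 0.65 or more, 35 of 39 members (89.7%) had a promoter DHS in both libraries, against 94.2% of all such protein-coding genes. Below 0.65, 22 of 30 members (73.3%) had one, against 41.1% of all such genes. The members' share was thus above that of all protein-coding genes among CpG-poorer promoters and slightly below it among CpG-rich ones. Below 0.65 the 2 sets were not alike, with a median ratio of 0.553 for members and 0.261 for all such genes. The shares in this class are therefore not matched for CpG content. It was the higher one in both length classes, with 30 of 32 members of at least 100 kb (93.8%, against 86.8% of all genes of that length) and 27 of 37 shorter members (73%, against 59.6%).

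Although most promoters were accessible, their signals were low. Over the 57 members the median promoter signal was 1.44 in replicate 1 and 1.25 in replicate 2, against 2.52 and 2.13 over the 13757 protein-coding genes called in both libraries. On the mean of both libraries, 46 of the 57 members lay below the median of all such genes. The median of this mean was 1.28 for members and 2.33 for all. The gap was found at CpG-rich promoters, with a median of 1.48 for members against 2.92 for all, at CpG-poor ones, with 1.14 against 1.54, and in genes of at least 100 kb, with 1.18 against 1.58.

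**Figure D2:**
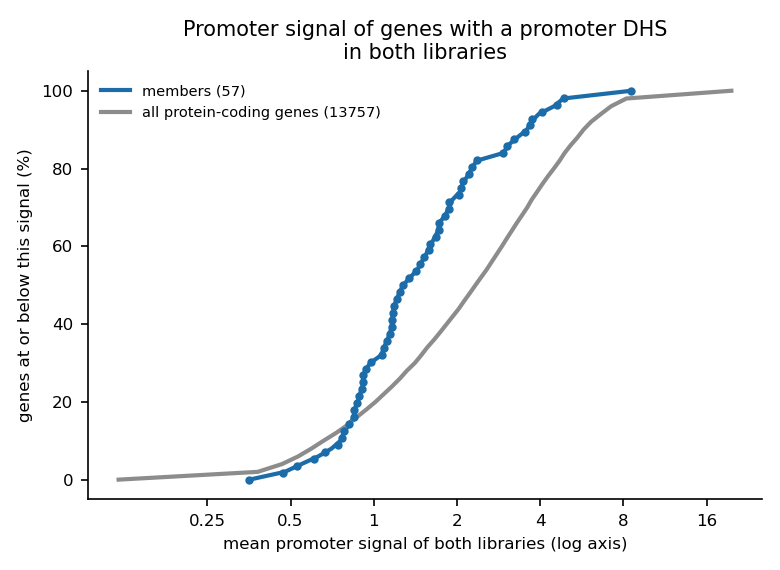
Distribution of promoter signal. The x axis (log scale) is the mean of the highest promoter peak signals of both libraries, and the y axis is the share of genes at or below it (%), for the 57 members (points and line) and all 13757 protein-coding genes called in both libraries. The member curve lies left of the curve for all genes over most of its height, with medians of 1.28 and 2.33.

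The order of the members was similar, not identical, in the libraries. Across the 57 members, log2 promoter signals of replicate 1 and replicate 2 had a Pearson correlation of 0.910, against 0.955 across all 13757 genes, and a Spearman correlation of 0.902, against 0.959, given as a description over genes of the same 2 libraries. The median log2 ratio of replicate 2 over replicate 1 was -0.25 for members, against -0.18 for all genes. Of the members, 41 were higher in replicate 1 (71.9%, against 70.8% of all genes) and 16 in replicate 2, so this share was near that of all genes. A difference of more than 2-fold was seen at 2 members (3.51%, against 1.35% of all genes). These were Epha2, a receptor also active in epithelia and vessels, with 1.28 in replicate 1 and 0.528 in replicate 2, and Sema3b, with 4.19 and 1.87. The largest ratio in the other direction was that of Plxnb2, a receptor of class 4 semaphorins, with a log2 ratio of 0.74. Its 2 values came from different sites. The DHS at its first TSS had 1.40 in replicate 1 and 1.84 in replicate 2, and one inside the gene had 1.26 and 2.33.

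**Figure D3:**
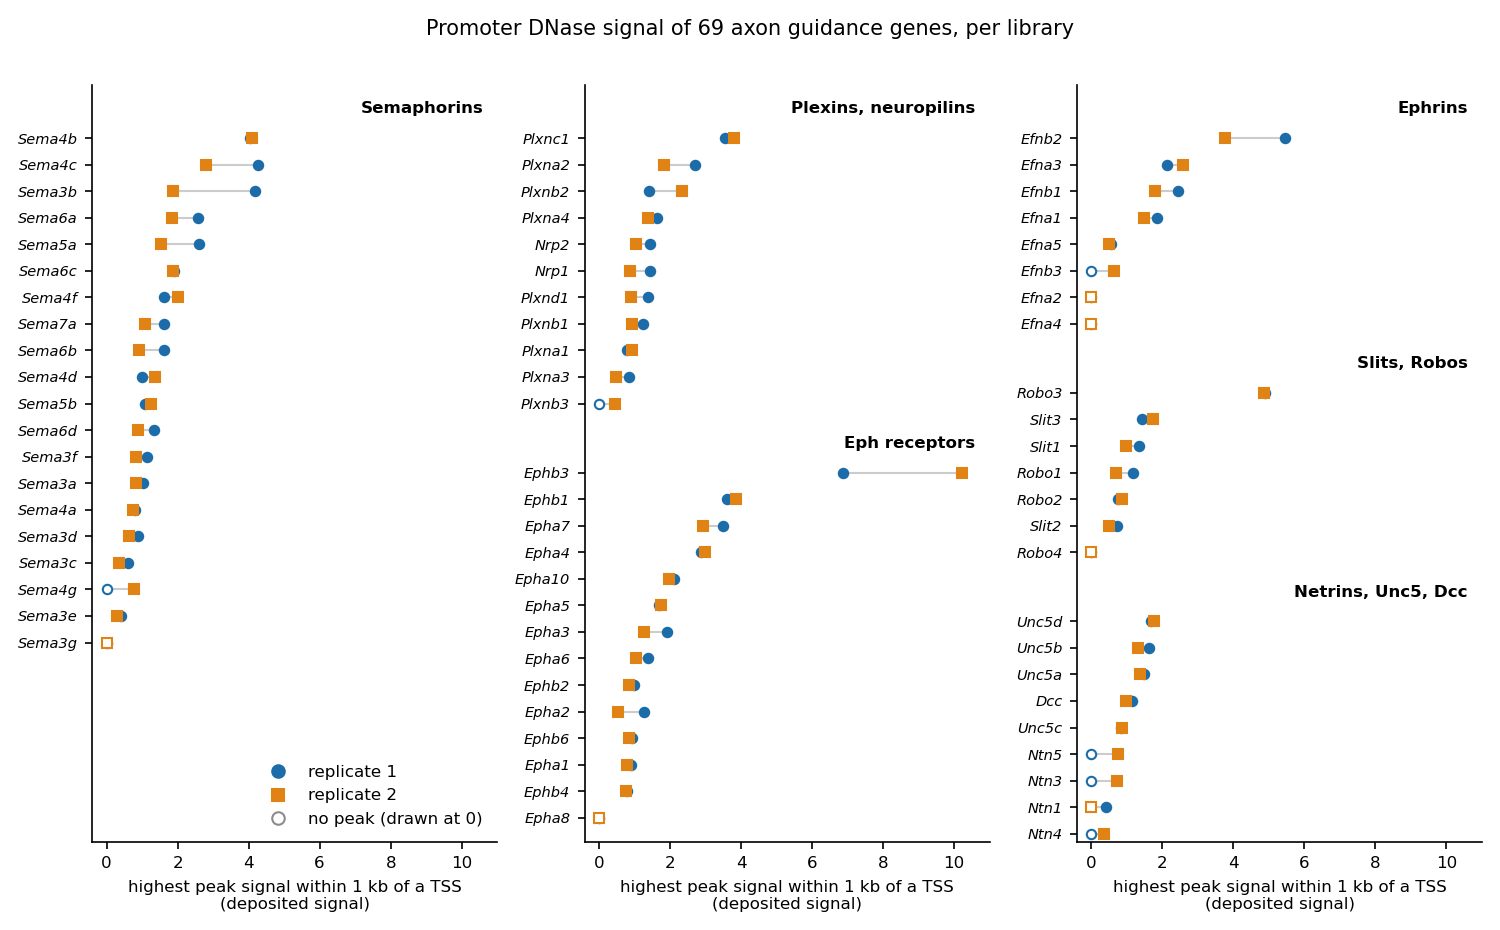
Promoter signal of all 69 members. Each row is a gene, the x axis is the deposited signal of its highest peak within 1 kb of a TSS, circles are replicate 1 and squares replicate 2, and open symbols at 0 mean no peak in that library. Ephb3 stands apart with 6.87 in replicate 1 and 10.2 in replicate 2, and most members lie below 2.

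Among the ligands, 2 of the 3 highest semaphorin promoters belonged to membrane-bound classes. This is like the share of these classes among the called semaphorins, 12 of 18. Sema4b, a transmembrane semaphorin, had a promoter signal of 4.05 in replicate 1 and 4.09 in replicate 2. Sema4c, which signals through Plxnb2, had 4.27 and 2.79. Sema3b, a secreted semaphorin, had 4.19 and 1.87, so its order against the other semaphorins differed between the libraries. The class 3 semaphorins were otherwise low: the median of the 6 called in both libraries, Sema3b included, was 0.944 in replicate 1 and 0.717 in replicate 2, and the median of the 12 called semaphorins of classes 4 to 7 was 1.62 and 1.45. Sema3a, the repellent of cortical axons that signals through Nrp1 and class A plexins, had 1.02 and 0.816. Sema3e, which binds Plxnd1 without a neuropilin, had the lowest promoter signal of all members called in both libraries, 0.416 and 0.294. The class difference was not tested, and the values of the classes overlapped.

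The ephrins ranged widely. Efnb2, a transmembrane ephrin of neurons and arteries, had a promoter signal of 5.46 in replicate 1 and 3.77 in replicate 2, at the promoter shown above. Efna3, a GPI-anchored ephrin, had 2.13 and 2.58, and Efnb1 had 2.44 and 1.78. Efna5, a repellent cue of topographic maps, had 0.547 and 0.508, at a promoter region 2140 bp wide that joined 7 peaks of replicate 1 and 5 of replicate 2, against a median of 300 bp for all 124 promoter DHSs of members. Unc5c, with 0.840 and 0.856, also had a wide region, of 1180 bp, from 3 and 2 peaks. The high DHS of Efnb2 spanned 240 bp and held 1 peak of each library.

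The Slits had middling to low promoters, and Robo3 a high one. Slit3 had 1.42 in replicate 1 and 1.75 in replicate 2, Slit1 had 1.35 and 0.981, and Slit2 had 0.732 and 0.488. Robo3, a divergent Robo known from commissural axons that cross the midline, had 4.89 and 4.86. This DHS lay near an internal start site of Robo3, and Robo3 had no call in both libraries once the window was narrowed to 500 bp. Robo1 and Robo2, the main Slit receptors of cortical axons, had 1.19 and 0.682, and 0.755 and 0.876.

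Netrins and their receptors differed in their calls. None of the 4 netrins had a promoter DHS in both libraries, whereas all 5 netrin receptors did. Ntn1, the secreted attractant of Dcc-bearing axons, had 4 low peaks within 1 kb of its TSSs in replicate 1, the highest at 0.401, and none in replicate 2, where the nearest peak lay 1254 bp from a TSS. Ntn3, Ntn4, a netrin of basement membranes, and Ntn5 had peaks in replicate 2 only, with signals of 0.722, 0.358 and 0.747. The receptors were called in both libraries at moderate signals. Unc5d had 1.67 in replicate 1 and 1.78 in replicate 2, Unc5b had 1.63 and 1.32, and Unc5a had 1.48 and 1.37. Dcc, the attractive netrin receptor, had 1.16 and 0.986. With the window widened to 2 kb on either side, Ntn1, Ntn3 and Ntn5 were called in both libraries. At Ntn5 the gain was a peak 1022 bp from its TSS with 2.31 in replicate 1 and 2.01 in replicate 2. At Ntn3 the only replicate 1 peak in the wider window, with 1.44, lay 905 bp from a TSS of Tbc1d24, nearer than the 1652 bp to Ntn3, so that call cannot be ascribed to Ntn3.

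The receptors of ephrins held the highest member of all. Ephb3, a receptor tyrosine kinase for B ephrins, had a promoter signal of 6.87 in replicate 1 and 10.2 in replicate 2, above 98.5% of all protein-coding genes called in both libraries. Ephb1, which guides uncrossed retinal axons, had 3.61 and 3.86, and Epha7, a receptor tied to cortical maps and dendrites, had 3.50 and 2.94. Epha4, which binds ephrins of both classes, had 2.88 and 3.0. The other EphB receptors were low, with Ephb2 at 0.986 and 0.846, Ephb6, which lacks kinase activity, at 0.925 and 0.846, and Ephb4, the partner of Efnb2 in veins, at 0.801 and 0.762. The difference between the highest and the lowest promoter signal was larger among the EphB receptors than in any other family, although the ratio between them was larger among the semaphorins.

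Among the plexins and neuropilins, Plxnc1, the receptor of Sema7a, had the highest promoter signal, 3.54 in replicate 1 and 3.79 in replicate 2. Plxna2, a class A plexin, had 2.71 and 1.84, and Plxnb2 had 1.40 and 2.33, at different sites. The neuropilins were close to each other, Nrp1 with 1.44 and 0.881 and Nrp2 with 1.44 and 1.04. Plxnd1, which also serves blood vessels, had 1.39 and 0.896, and Plxna4, a partner of Nrp1 in Sema3a signalling, had 1.63 and 1.39. Sema7a, the ligand of Plxnc1, had 1.60 and 1.09, and Sema5a, a transmembrane semaphorin, had 2.60 and 1.54 at a DHS whose midpoint lay 1078 bp from the nearest TSS, at the edge of the window.

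Of the 12 members without a promoter DHS in both libraries, 5 had no promoter peak in either. These were Efna2 and Efna4, GPI-anchored ephrins, Epha8, an EphA receptor, Robo4, the Robo of endothelium, and Sema3g, a secreted semaphorin. For 4 of these 5 the authors' segments of significant cutting, with a false discovery rate of at most 0.05, did not touch the promoter in either library, and at Sema3g they covered 2 bp in replicate 2. The nearest peak to a TSS lay 14257 bp away at Epha8 in replicate 1, but 1453 bp away at Efna4, where it had a signal of 1.64 and lay 652 bp from a TSS of Adam15. Efna2 and Epha8 lacked a peak despite CpG ratios of 0.865 and 0.882, whereas Robo4 and Sema3g were CpG-poor, with 0.162 and 0.177.

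The call found in replicate 1 alone had weak peaks, and those in replicate 2 alone lay on either side of that library's median peak signal of 0.463. Replicate 2 alone had peaks at Efnb3 (0.637), Ntn3 (0.722), Ntn4 (0.358), Ntn5 (0.747), Plxnb3 (0.458) and Sema4g (0.767). The highest of these, at Sema4g, exceeded 73.5% of all peaks of that library, and the lowest, at Ntn4, exceeded 34.9%. The peaks of Efnb3, Ntn3, Ntn4, Ntn5, Plxnb3 and Sema4g were all higher than the 0.294 of Sema3e in that library, which was called in both. At Efnb3, Ntn3 and Ntn4 replicate 1 had no base of significant cutting within the promoter window, and at Ntn5 it had 36 bp with a smallest q-value of 0.00119 although no peak was listed there. The Ntn1 peaks of replicate 1 exceeded between 10.4% and 17.1% of the peaks of their library. The Ntn3 peaks also lay within 1 kb of a TSS of the neighbouring gene BC028777 and cannot be assigned to either gene.

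The promoter DHSs of members lay far from other coding genes. At none of the 57 called members did the highest promoter DHS lie within 1 kb of a TSS of another protein-coding gene, against 19.7% of the 13689 protein-coding genes with a shared promoter DHS. The closest cases were Sema3f, 5609 bp from another coding gene's TSS, Sema4f with 7022 bp and Sema3b with 9494 bp. The median distance was 69.3 kb for members and 17.1 kb for all. The calls of members thus did not rest on a neighbour's coding promoter, and counting each peak only for the gene with the nearest TSS left all 57 in place. For 36 of the 57, the highest promoter DHS covered an annotated TSS, and the share over all protein-coding genes is not given here. Over all 57, the median distance from the midpoint of the highest promoter DHS to the nearest TSS was 96 bp.

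Several members had accessible DNA at more than 1 start site. After overlapping promoter windows were joined, 49 members had more than 1 separate start-site stretch, and 16 of these (32.7%) had a shared DHS at more than 1 of them, against 17.8% of the 11206 protein-coding genes with several stretches. Over all members the share was 23.2%, against 9.1% of all protein-coding genes. The 16 were Epha7, Ephb3, Plxna1, Plxnb1, Plxnb2, Plxnc1, Plxnd1, Robo1, Robo3, Sema3f, Sema4b, Sema4d, Sema4f, Sema6b, Sema6d and Slit3. Plxnb2 and Slit3 each had a DHS at 3 stretches. They held 6 of the 20 semaphorins and 5 of the 9 plexins.

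Beyond promoters, the gene bodies of members held 391 shared DHSs, meaning merged regions with a peak of each library. By midpoint and distance, 260 were intronic, 18 exonic and 113 within 1 kb of an annotated TSS of any gene. Slit3 led with 25 shared DHSs, built from 30 peaks in replicate 1 and 67 in replicate 2, of which 23 were intronic. Plxna4 held 20 (24 peaks in replicate 1, 44 in replicate 2) and Ephb2 held 19 (21 and 35). Robo1 held 17 (20 and 42), and Slit1, Dcc and Unc5d held 14 each, from 14 and 24, 17 and 35, and 13 and 39 peaks. Because a region is counted when any part of it overlaps the gene, a shared DHS at a gene's edge can exceed a library's own count, as for Unc5d. Plxna2 and Sema6d held 13 each, from 13 and 28 and from 18 and 47 peaks. Ephb1, Epha6, Nrp2 and Sema3a were tied at 11.

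Long genes hold more DHSs, so members were read against protein-coding genes of like length. Of 69 members, 32 lay above, 22 below and 15 at the median of their length bin, 20 above its upper quartile and 7 below its lower quartile. The same counts over all protein-coding genes are not given here, and low counts are often tied. These counts are therefore no measure of an excess among members. Ephb2, 188 kb long, held 19 against a median of 7 and an upper quartile of 11. Slit1, 143 kb long, held 14 against a median of 4 and an upper quartile of 6, and Nrp2, 115 kb long, held 11 against the same. Among short members, Efna3 held 7 shared DHSs in 9.07 kb and Ntn3 held 2 in 5.68 kb, both against a median of 0 and an upper quartile of 1. Both Ntn3 sites lay within 1 kb of a TSS of its neighbour Tbc1d24. The very long receptors Dcc and Epha6 went the other way, with 14 and 11 against a median of 18. Pooled over genes of at least 100 kb, members held 2.81 shared DHSs per 100 kb, against 3.23 for all protein-coding genes of that length. Pooled over shorter genes the order was the other way, with 9.89 for the 37 members under 100 kb and 6.55 for all protein-coding genes of that length.

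**Figure D4:**
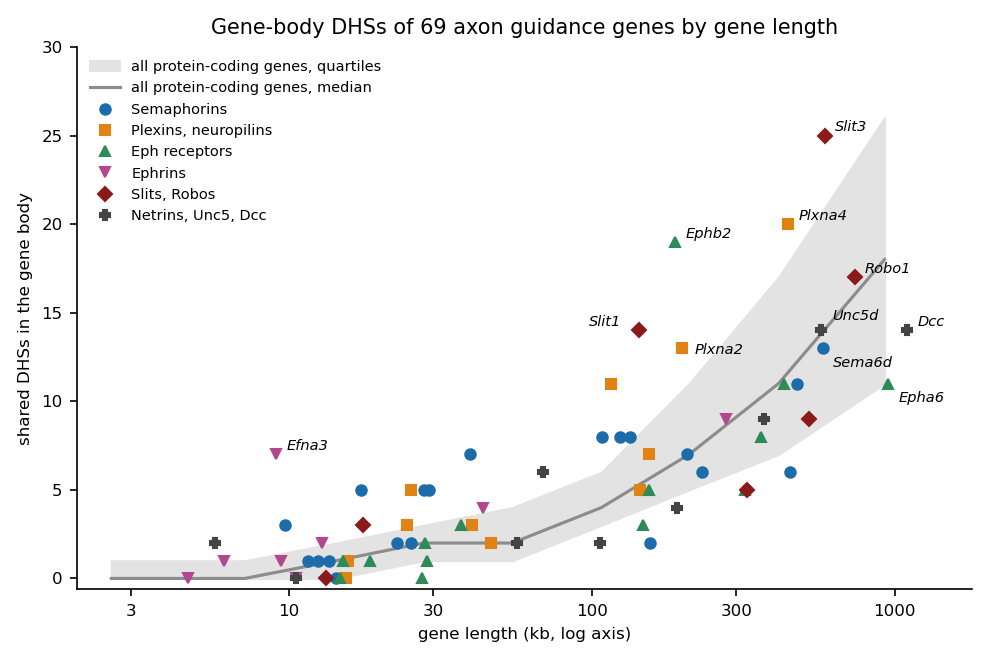
Gene-body DHSs against gene length. Each point is a member, coloured by family group, the x axis is gene length (kb, log scale) and the y axis the number of shared DHSs in the gene body; the grey line and band are the median and quartiles of all protein-coding genes in length bins. Slit3 with 25, Plxna4 with 20, Ephb2 with 19, Slit1 with 14 and Efna3 with 7 lie above the band, while Dcc with 14 and Epha6 with 11 lie below the line.

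The intronic and exonic DHSs of members away from start sites had lower signals than those at start sites. The median signal of these 278 DHSs was 0.616 in replicate 1 and 0.682 in replicate 2, where the 113 near a TSS had 0.879 and 0.841, and 61.2% held a footprint found in both libraries, against 67.6% of the 24645 such DHSs in the bodies of all protein-coding genes. The highest was the Ephb2 intron shown above, with 3.84 in replicate 1 and 2.69 in replicate 2, well over the signals of 0.986 and 0.846 at the Ephb2 promoter itself. An intronic DHS of Efna3 at chr3:89316901-89317100 had 3.34 and 2.72, and an exonic DHS of Ephb2 at chr4:136648981-136649180 had 3.33 and 2.27. Slit1 held an intronic DHS at chr19:41697501-41697760 with 1.93 and 3.02, above its own promoter in both libraries. Nrp1 held an exonic DHS at chr8:128363321-128363540 with 2.92 and 1.97, also above its promoter.

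**Figure D5:**
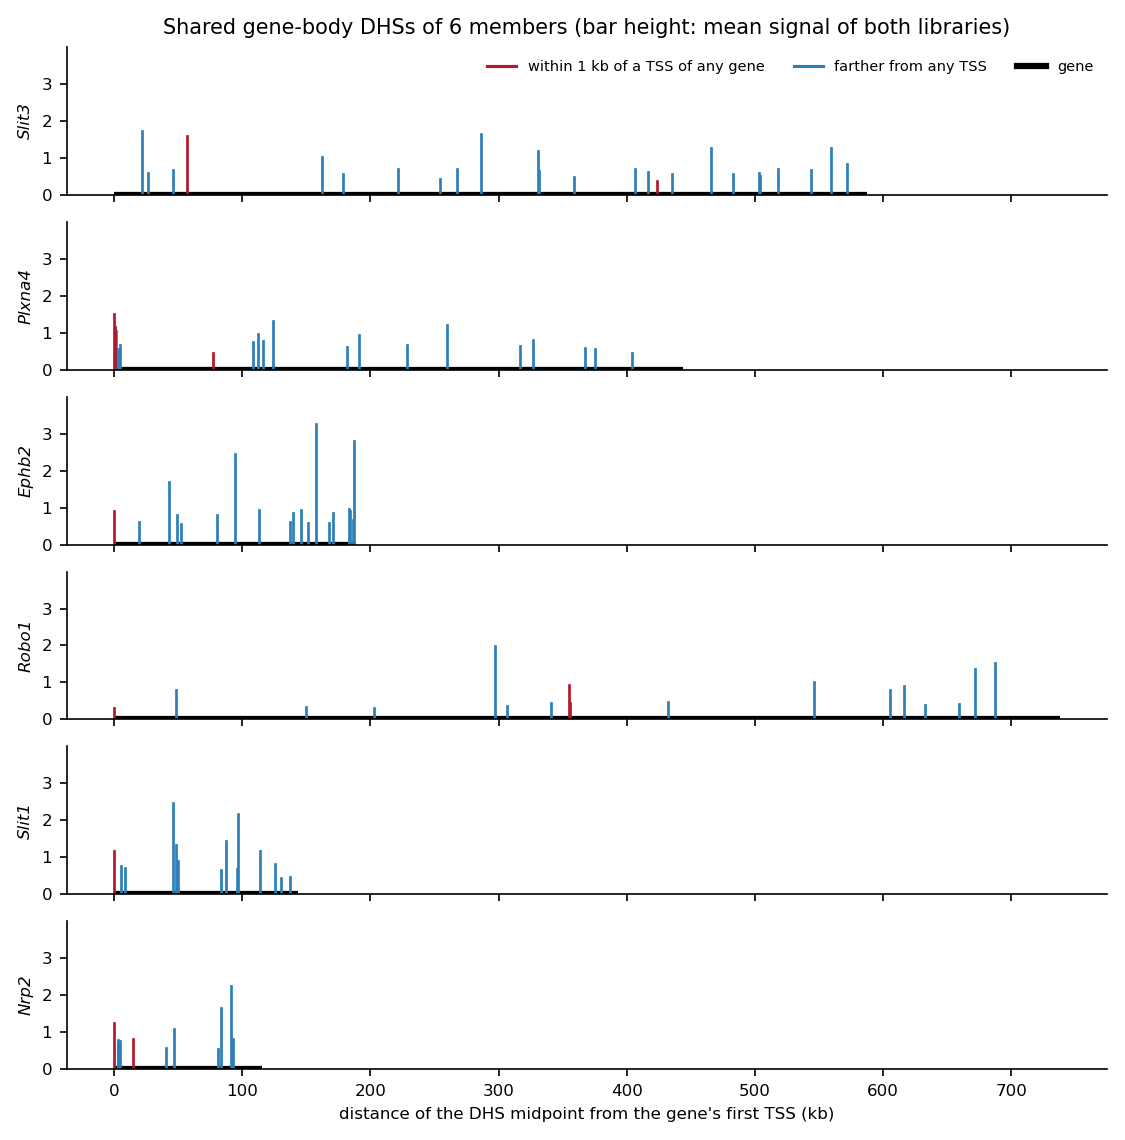
Shared DHSs along 6 members. The x axis is the distance of the DHS midpoint from the gene's first TSS in the direction of transcription (kb), bar height is the mean signal of both libraries, red bars lie within 1 kb of a TSS of any gene, blue bars farther away, and the black line is the gene. The 4 members with the most gene-body DHSs are drawn with Slit1 and Nrp2, which were chosen after their values were seen; the tallest bar of Ephb2, at 3.26, stands deep inside the gene and not at its first TSS.

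Distal DHSs were shared DHSs more than 1 kb from any annotated TSS that lay no farther than 50 kb from a member's own TSS. There were 320 around members, of which 236 had a member as the coding gene with the nearest TSS and 11 were counted for more than 1 member. The median per gene was 4 for members and 3 for all protein-coding genes. The windows of all TSSs of a gene were joined, so a gene with widely spread TSSs was searched over more DNA. With the most 5′ TSS only, the 320 became 227. Ephb2 had the most with 23 (24 peaks in replicate 1 and 36 in replicate 2), rank 10 among all 21938 protein-coding genes, ties sharing the better rank. Its TSSs span 174 kb, those of Slit1 135 kb, Plxna4 363 kb, Plxna2 186 kb and Plxnc1 115 kb. The ranks are not corrected for this, and intronic sites can also be among the gene-body DHSs above. Slit1 had 15 (15 and 22 peaks), Plxna4 12 (13 and 18), Plxna2 11 (12 and 28), Plxnc1 11 (13 and 17) and Efnb3 9 (10 and 15). Nrp2, Robo1, Robo4, Sema4b and Slit3 were tied at 8, with 8 and 17, 10 and 15, 9 and 15, 8 and 15, and 10 and 20 peaks. Efnb3 and Robo4 reached these counts without a promoter DHS in both libraries. Apart from its own intronic site, the sites counted for Efnb3 had Dnah2, Trp53 or Atp1b2 as the coding gene with the nearest TSS. Of the sites around Robo4, 6 were also counted for its neighbour Robo3. Plxna3 had none.

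The highest distal DHS lay 19521 bp upstream of the first TSS of Efna2, at chr10:80159801-80160120, with 7.36 in replicate 1 and 7.17 in replicate 2. Efna2 itself had no promoter peak, and Cirbp was the coding gene with the TSS nearest to this site. Near Slit1, a site at chr19:41763961-41764180 had 5.78 and 3.71. Near Sema3b, a site at chr9:107612701-107612960 had 5.90 and 4.88, but the coding gene with the TSS nearest to it was Gnai2. Each of these sites exceeded the promoter of the member it lay near in both libraries. Nearness does not assign a site to a gene, and no contact or expression data were analysed here.

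Footprints were read inside the 124 shared promoter DHSs of members. They held 223 footprints of replicate 1 that overlapped one of replicate 2, which is 56.3% of the 396 replicate 1 footprints there, and 89 of the 124 DHSs (71.8%) held at least 1, against 73.7% of all 23054 shared promoter DHSs. Efnb2 had 10 shared footprints, Epha7, Ephb3, Plxnb2 and Plxnc1 had 11 each, and Plxna1, Slit2 and Sema3e had none although their promoters were called. The deposited footprints carry the constant 0.01 as p-value, so they could not be ranked by strength.

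Consensus motifs were searched on both strands of these 124 DHSs and of all 23054 shared promoter DHSs. The SP/KLF box GGGGCGGGG was in 23 (18.5%, against 15.7% of all) and a CTCF consensus in 12 (9.68%, against 5.90%). The EGR box GCGTGGGCG, bound by immediate-early zinc fingers of neurons, was in 4 (3.23%, against 1.25%), at Efna3, Plxna2, Plxnb2 and Sema6d, and each of the 4 overlapped a footprint found in both libraries. Of the CTCF matches, 7 overlapped such a footprint, at Efna1, Epha1, Plxna2, Plxnb2, Robo3, Sema3b and Sema4f. The share of matches under a footprint over all promoter DHSs is not given here. These overlaps are therefore no measure of an excess among members. In the Robo3 stretch above, the CTCF match began at base 53 and all 12 of its bases lay under a footprint. In the Ephb3, Efnb2 and Unc5b stretches, an SP/KLF match lay whole under a footprint, at base 93, 170 and 41.

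Other boxes were rarer at members than at all promoters or near the common share. CCGGAAGT (ETS) was in none of the 124, against 4.94% of all promoter DHSs, and so were the consensus motifs of NRF1 (1.44% of all) and YY1 (1.43% of all). Those of RFX, NFI and REST were also in none, against 0.152%, 0.0781% and 0.00868% of all. CCAAT (NFY) was in 32 (25.8%, against 33.3%), TGANTCA (AP-1) in 3 (2.42%, against 5.39%), TGACGTCA (CRE) in 2 (1.61%, against 2.63%) and CAGATG (the NEUROD-type E-box) in 20 (16.1%, against 14.2%). In the 278 gene-body DHSs away from start sites, CAGATG was in 30.9%, against 28.4% of all 52122 shared distal DHSs. TGANTCA was in 10.8% against 12.2%, and the CTCF consensus in 11.5% against 16.1%. The 52122 also include DHSs outside genes, so the 2 sets are not alike in place. In 26 of the 32 gene-body DHSs that hold the CTCF consensus, a match lay under a shared footprint. That share over all distal DHSs is not given here. A match is only a run of letters and a missing match says nothing about the factor.

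The other genes of the pathway, a list of 48 co-receptors, further ligands and cytoplasmic mediators, were called in both libraries at 44, with L1cam, Draxin, Unc5cl and Flrt1 as the exceptions. The share over all protein-coding genes was 62.7%. Their median promoter signal was 1.85 on the mean of both libraries, against 1.28 for the members and 2.33 for all protein-coding genes called in both. The lowest called were Ntng1, with 0.532 in replicate 1 and 0.398 in replicate 2, and Vav3, with 0.763 and 0.408. Some of the highest are named next. Rhoa, the GTPase downstream of plexins and Eph receptors, had 8.72 in replicate 1 and 10.4 in replicate 2, Srgap2, a Robo effector, had 6.42 and 8.35, and Dpysl2, a mediator of Sema3a signalling, had 6.97 and 7.12. Rgmb, a ligand of the neogenin receptor, had 5.08 and 5.60. Draxin, an antagonist that binds netrin and Dcc, had no promoter peak in either library.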

How the data were processed

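DNase-seq peaks, footprints and cut-rate segments of 2 libraries of 1 group were used as deposited. Peak signals are the authors' deposited signal per peak, of unstated unit. The deposited notes record that the authors made each peak list from 1 library's alignments, unpooled. The deposited q-value of each cut-rate segment is at most 0.05, and the deposited p-value of each footprint is the constant 0.01. The build is mm10, per the labels. Aligner, callers and versions: not given in the sources used here. Depth is therefore unknown, and no interval or floor was computed.

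Genes came from GENCODE M21 (55413 genes, 21938 protein-coding) and bases from the RefSeq copy of GRCm38. Of the members, 59 of 69 matched an entry in the RefSeq promoter table. The larger peak list of each library was used. Overlap meant at least 1 bp. Shared DHSs were merged regions with a peak of each library, and shared footprints those of replicate 1 overlapping one of replicate 2. Printed sequences leave out annotated untranslated regions. Every member was named with its promoter call, with values per library for the 3 highest of each family group, for calls in 1 library, and for the 10 with the most gene-body and distal DHSs, ties included; other values shown were chosen after they were seen. The members, gene lists and motifs were chosen with earlier results of these data known. The overlap functions were tested on simulated data. Python 3.11.15, NumPy 2.4.6, pandas 2.3.3, pysam 0.24.0 and Matplotlib 3.10.9 were used.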

Additional observations from a re-analysis of the deposited data

How the results depend on the processing

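The count of 57 members with a promoter DHS in both libraries stayed between 53 (most 5′ TSS only) and 61 (windows of 2 kb, where the gains at Efna4 and Ntn3 rest on peaks nearer to a TSS of Adam15 and Tbc1d24) when both libraries were needed, and was 58 in replicate 1 alone and 63 in replicate 2 alone. Sema5a lost its call with windows of 500 bp, with the most 5′ TSS, with basic transcripts and when 50% of the peak had to overlap. Over all 37 alternatives, 25 values moved by less than 1.5 times, or, for the median signal, by less than the spread between libraries, and 12 moved by more. The 391 gene-body DHSs became 203 with the smaller peak lists and 467 to 977 with either library alone. The 320 distal DHSs became 169 with the smaller lists, 175 within 20 kb, 510 within 100 kb and 357 to 758 with either library alone. The 223 shared footprints became 145 when footprints had to overlap by 50% of both, and 383 to 583 footprints were counted with either library alone. The median promoter signal of 1.28 became 2.65 when the peak signals in the window were summed, and 1.04 to 1.43 with either library alone. The causes were not tested beyond the construction of each alternative (fewer peaks, other distances, 1 library). No paired analysis was possible because both libraries belong to 1 group. With 2 libraries, a spread is that of these libraries, and nothing here measures gene expression.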
